A study of Arabidopsis thaliana with 24 samples.

Results

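The genes described here encode proteins of the small, 40S subunit of the cytosolic ribosome of Arabidopsis thaliana. They were chosen by annotation and not by any measured value: 60 loci of the RPS2 to RPS28 families were listed, without the families RPS6, RPS15a, RPS18 and RPS19. These loci belong to 24 protein families. Of the 60 listed genes, 58 had a feature on the array, and RPS17A (AT2G04390) and RPS17B (AT2G05220) were not analyzed here. RPS16C (AT5G18380) had 3 features, numbered RPS16C.1 to RPS16C.3 below, so that the 58 genes gave 60 features among the 30386 gene features of the array (30174 loci). A feature is the summarized value of the probes assigned to a gene.

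Each ribosome carries 1 copy of most of these proteins beside the 18S ribosomal RNA. In plants nearly every one is encoded by a small family of paralogous genes, whose products are often almost identical. The small subunit binds the mRNA, scans to the start codon together with initiation factors and holds the decoding site, where the codon is read by the tRNA. Messenger RNAs of ribosomal proteins are themselves abundant and are known to move between translated and untranslated pools when light, sugar or TOR kinase signaling change. TOR is a kinase that links nutrient state to growth, and its downstream kinase S6K phosphorylates the 40S protein RPS6.

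Seedlings of the Col-0 ecotype were grown in liquid culture in constant light and were then kept for 6 h with 150 mM sorbitol (control) or 150 mM sucrose, in light or in darkness. The sample labels give an age of 7 days, and the study's methods give another age. The 4 treatments are called light control, light sucrose, dark control and dark sucrose. For each treatment 3 cultures, carrying the replicate numbers 7, 8 and 9, were sampled as total RNA and as RNA of the small polysome fraction of a sucrose gradient, here called polysomal RNA, which makes 8 groups of 3 arrays and 24 arrays in all. All groups share the wild-type genotype, the liquid medium and the whole seedling as source. Sorbitol stands in the control for the osmotic load of sucrose and is itself a treatment. The difference between polysomal and total log2 value of one culture is called polysome occupancy. Large polysomes are not part of it, so a move of mRNA between small and large polysomes would also change this value. Occupancy is a difference within 1 feature, so that features can be set side by side, while levels of different features were not compared.

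All values are on the log2 scale. Array medians over all features lay between 5.92 and 6.06, and none of the 60 features had a mean below the lower quartile of all feature means (4.26). The dark sucrose polysomal array of replicate 9 stood apart: the median over the 60 features was 8.48 there, against 8.99 and 9.06 on the other two dark sucrose polysomal arrays. Most counts and medians that rest on it are given with and without it, and array values are printed for all arrays. Where a count from a fit without some arrays has no share of all features beside it, that share is not given here. In whole seedlings, fewer cells of a type and less RNA per cell cannot be told apart. Of 8 marker genes of proliferating cells, 1 passed the adjusted p of 0.05 for sucrose in light in total RNA (PCNA2), none passed together with a fold over 2, and their median change was 0.17. The mean log2 value of these markers in total RNA ranged over the arrays from 5.72 to 5.86 in light control and from 5.94 to 6.12 in light sucrose. Of 5 marker genes of green tissue, 4 fell more than 2-fold with a median change of −1.3, and their array means went from 9.40 to 9.97 in light control to between 8.13 and 8.76 in light sucrose. Of 5 root markers none passed with a fold over 2, and their array means were 6.35 to 6.66 in light control and 6.59 to 6.61 in light sucrose. The part of these marker changes in the results below was not tested.

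In light, sucrose raised the total mRNA of most 40S genes by less than 2-fold. All 60 features were higher in light sucrose than in light control, with a median log2 change of 0.74 (range 0.22 to 1.36), beside a median of 0.02 over all features. An adjusted p under 0.05 in a linear model over all arrays was reached by 53 of the 60, where 15.7% of all features rose at that threshold. The call used here, which also asks for more than 2-fold, was met by 14 features, against 3.73% of all features. None fell. At least 1 gene passed the adjusted p in each of the 24 families, every listed gene with a feature passed in 17 families, and in 13 families a gene was called. Family counts here and below cover the listed genes alone. The 3 light sucrose arrays lay above the 3 light control arrays for 56 of the 60 features, as for 21.5% of all features. Without the arrays of replicate 8 the number of calls was 9, and without those of replicate 9 it was 17.

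**Figure D1:**
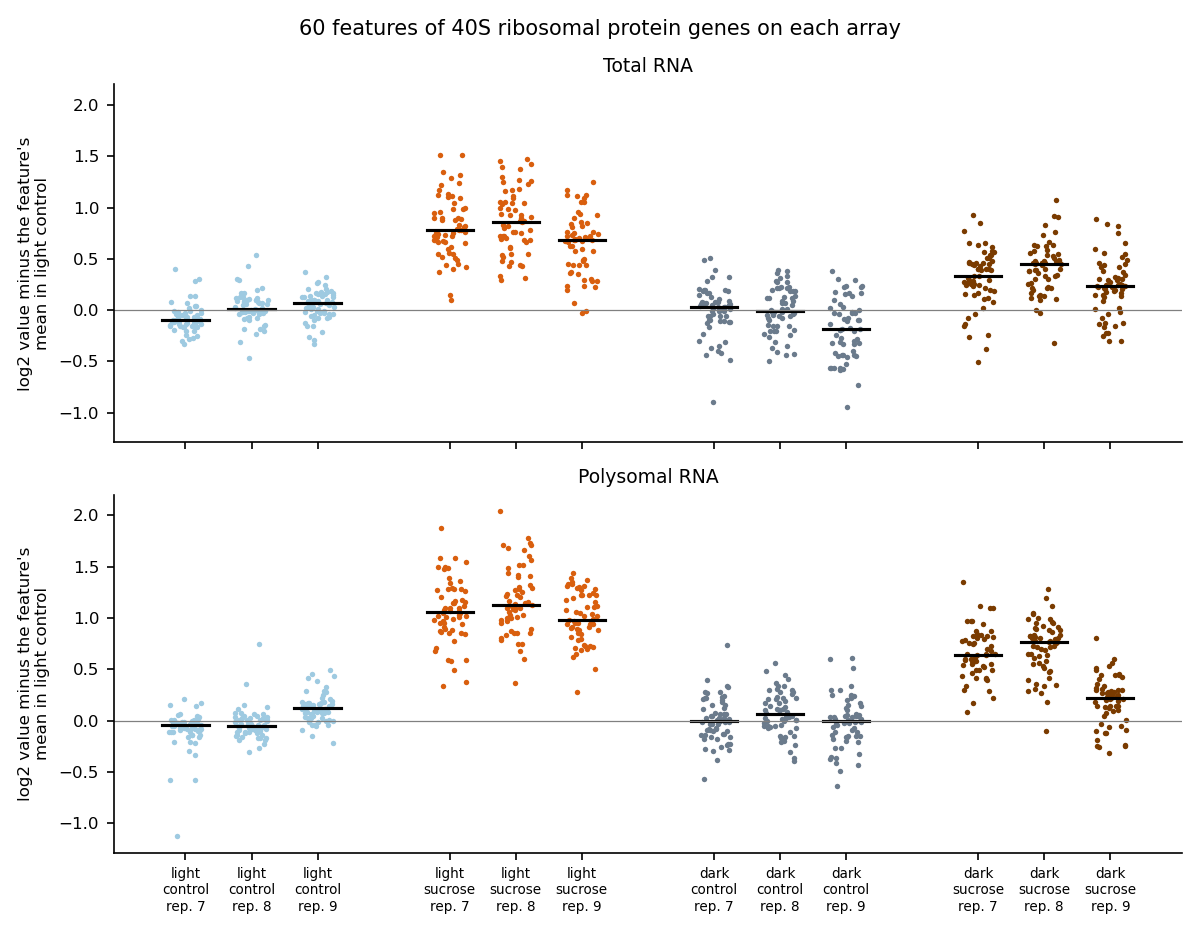
The log2 value of each of the 60 features minus its own mean in light control is plotted for every array (dots, spread sideways at random), with the median as a bar. The upper panel shows total RNA and the lower panel polysomal RNA. The light sucrose arrays sit highest in both, and the dark sucrose polysomal array of replicate 9 sits below its replicates.

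RPS11B (AT4G30800; chr4:15001134-15002671, plus strand, as in the array's identifier, whose genome build is not stated) had the largest change in total RNA. Its product sits in the body of the subunit. The values were 3.68, 4.03 and 3.74 in light control and 5.32, 5.29 and 4.93 in light sucrose. The groups did not overlap, and the rise of 1.36 ± 0.20 (SE, adjusted p = 2.0e-05) started from a low signal, since the mean of this feature over all arrays was 4.41.

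RPS2D (AT3G57490; chr3:21279666-21280948, minus strand) encodes a protein at the entry of the mRNA channel. Total RNA gave 7.89, 7.67 and 8.15 in light control and 9.42, 9.30 and 8.95 in light sucrose, a rise of 1.32 ± 0.20 (SE, adjusted p = 2.9e-05). All light sucrose values were above all control values. The other two genes of this family moved less: RPS2C (AT2G41840) went from 10.49 ± 0.07 to 10.97 ± 0.16 (SD, n = 3), and RPS2A (AT1G58380) from 4.79 ± 0.15 to 5.13 ± 0.24, a change of 0.34 that did not pass the test (adjusted p = 0.24).

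RPS12C (AT2G32060) and RPS12A (AT1G15930) encode a protein of the subunit's head. RPS12C was 8.07, 7.77 and 8.41 in light control and 9.43, 9.51 and 9.21 in light sucrose. Its change of 1.3 ± 0.16 (SE, adjusted p = 4.0e-06) was the third of the 60. RPS12A was 8.37, 8.28 and 8.25 in light control and 8.70, 8.84 and 8.30 in light sucrose, so that the groups overlapped, with a change of 0.31 ± 0.19 (adjusted p = 0.26). Among the listed genes of each family, S12 had the widest range of changes in total RNA in light (0.98), followed by S2 (also 0.98), S20 (0.76) and S27 (0.69).

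RPS5A (AT2G37270 in the study's naming; RefSeq calls this locus RPS5B) was the fourth by size of change. Light control arrays gave 7.49, 7.56 and 7.62, and light sucrose arrays 8.60, 9.0 and 8.65, which do not overlap (change 1.20 ± 0.16 SE, adjusted p = 7.7e-06). Its paralog RPS5B (AT3G11940, RPS5A in RefSeq), known in Arabidopsis for strong expression in dividing cells, rose by 0.73, less than 2-fold. The S15 family, whose protein lies in the head, was the only one in which every listed gene was called: RPS15A (AT1G04270) rose by 1.12 and RPS15D (AT5G09510) by 1.02. The S15 genes RPS15B, RPS15C and RPS15F, which were measured but not listed, changed by 0.14, 0.23 and 0.32. Without the arrays of replicate 7, the change of RPS15D was 0.75 with an adjusted p of 0.076. Near the 2-fold limit, RPS3A (AT2G31610) and RPS15D lay just above it at 1.02, and RPS28A (AT3G10090) just below it at 0.98.

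In the S20 family, whose protein is part of the head, RPS20B (AT3G47370) went from 8.39, 8.21 and 8.51 to 9.49, 9.74 and 9.18 in total RNA in light. The groups were apart, and the rise was 1.10 ± 0.16 (SE, adjusted p = 2.3e-05). RPS20C (AT5G62300) went from 7.35, 7.52 and 7.42 to 7.57, 7.87 and 7.87, a change of 0.34 ± 0.17 that did not pass (adjusted p = 0.16). RPS20A (AT3G45030) rose by 0.71. In the S27 family, which carries a zinc finger, RPS27A (AT2G45710) went from 5.54, 5.62 and 5.82 to 6.76, 6.92 and 6.72 (change 1.14 ± 0.16 SE, adjusted p = 1.7e-05). RPS27B (AT3G61110) went from 6.30, 6.27 and 6.48 to 6.86, 6.82 and 6.71. The change of RPS27B was 0.45 ± 0.15, so that the paralog difference RPS27A minus RPS27B closed from −0.69 ± 0.06 to 0.00 ± 0.10 (SD, n = 3).

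RPS25E (AT4G39200) had the smallest change in total RNA in light. RPS25 lies in the head, and in yeast and mammals it is known for its role in initiation at internal ribosome entry sites. Total RNA of RPS25E gave 6.98, 7.44 and 6.97 in light control and 7.23, 7.46 and 7.36 in light sucrose, overlapping groups with a change of 0.22 ± 0.17 (SE, adjusted p = 0.42). Its paralog RPS25B (AT2G21580) went from 9.71 ± 0.14 to 10.61 ± 0.19 (SD, n = 3), a rise of 0.90 ± 0.12 (SE, adjusted p = 1.1e-05).

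**Figure D2:**
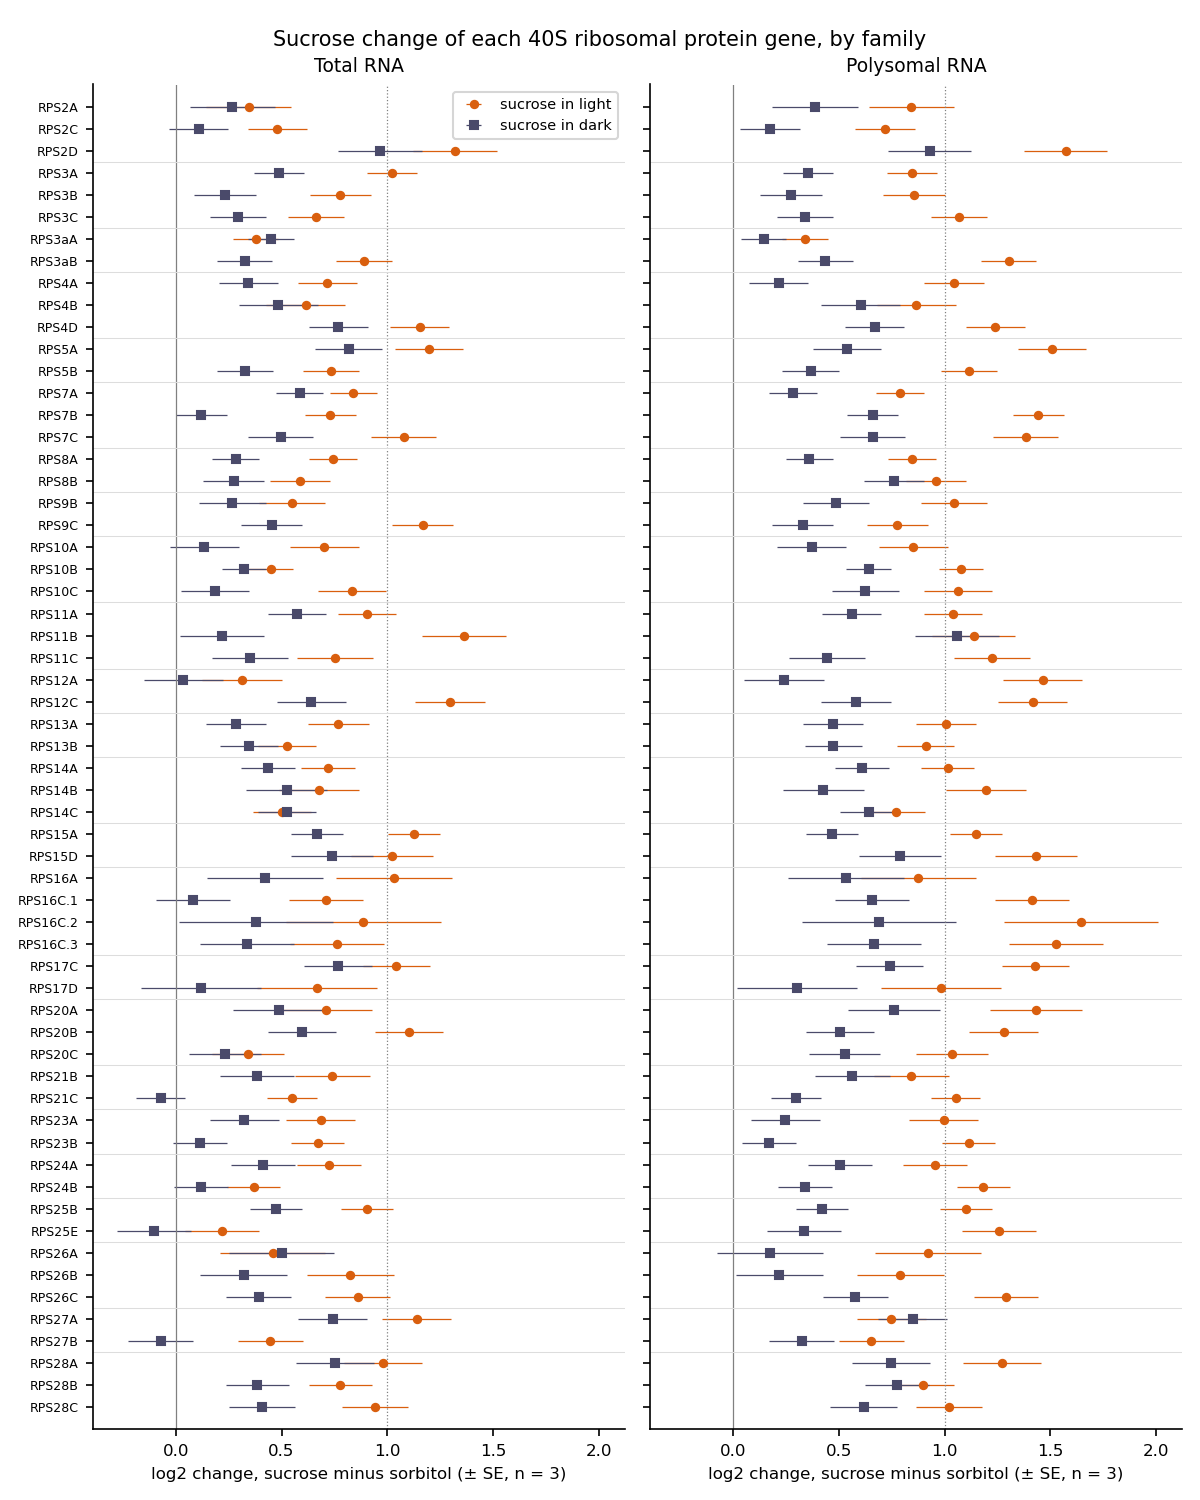
The log2 change of each of the 60 features with sucrose is plotted for light (circles) and darkness (squares) with its SE, in total RNA (left) and polysomal RNA (right); grey lines separate the families and the dotted line marks 2-fold. All circles are above 0, from 0.22 in total RNA and from 0.34 in polysomal RNA, and most squares lie to the left of the circle of the same gene.

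In polysomal RNA in light every feature rose, and most by more than 2-fold. All 60 features passed the adjusted p of 0.05, where 18.5% of all features rose at that threshold, and 37 of the 60 were called with more than 2-fold (4.79% of all features). The median log2 change was 1.05 (range 0.34 to 1.64), beside 0.01 over all features. In 22 of the 24 families at least 1 gene was called, and in 6 families every listed gene with a feature was. The light sucrose arrays were above the light control arrays for all 60 features, as for 23.7% of all features.

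The largest polysomal changes belonged to RPS16C and RPS2D. RPS16 reaches the site where the initiator tRNA is held. RPS16C.2 was 4.53, 6.40 and 6.04 in light control and 7.15, 7.70 and 7.05 in light sucrose. The change of 1.64 ± 0.36 (SE, adjusted p = 0.0014) rests in part on the low control array of replicate 7. RPS16C.3 was 7.34, 8.27 and 8.14 against 9.28, 9.70 and 9.36, a change of 1.53 ± 0.22 (adjusted p = 1.9e-05), and RPS16C.1 rose by 1.41. The 3 features of this gene share a locus and are not independent.

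RPS2D in polysomal RNA was 8.30, 8.22 and 8.24 in light control and 10.13, 9.92 and 9.43 in light sucrose (change 1.57 ± 0.20 SE, adjusted p = 3.3e-06). RPS5A followed with 7.74, 7.51 and 8.06 against 9.35, 9.38 and 9.10 (change 1.51 ± 0.16, adjusted p = 4.5e-07). For both the groups were far apart. At the other end, RPS3aA (AT3G04840), whose protein lies near the exit of the mRNA channel, was 11.79, 11.88 and 11.85 against 12.22, 12.21 and 12.11. This rise of 0.34 ± 0.11 (adjusted p = 0.019) was the smallest of the 60, while its paralog RPS3aB (AT4G34670) went from 8.37, 8.58 and 8.79 to 9.92, 9.91 and 9.83 (change 1.3 ± 0.13, adjusted p = 2.3e-07). The RPS3aA feature had a mean above 11 in every group, and a limit of the scale at high signal was not tested.

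The next smallest polysomal rises in light were those of RPS27B, RPS2C and RPS27A. RPS27B went from 5.89, 5.72 and 6.48 to 6.61, 6.71 and 6.74, a rise of 0.65 ± 0.15 (SE, adjusted p = 0.0021). RPS2C went from 10.34, 10.42 and 10.49 to 11.20, 11.29 and 10.92, a rise of 0.72 ± 0.14 (adjusted p = 0.00045). RPS27A went from 5.87, 5.77 and 6.24 to 6.45, 6.77 and 6.91, a rise of 0.75 ± 0.16 (adjusted p = 0.0011). In each of the 3 the light sucrose arrays were above the control arrays, and none reached 2-fold.

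Of the other families, the next values are of genes chosen after their values were seen. RPS17C, RPS4D and RPS28A passed the adjusted p in total RNA in both light and darkness. RPS17C (AT3G10610) was 8.21, 8.09 and 8.10 in light control and 9.25, 9.38 and 8.90 in light sucrose in total RNA, and 8.01, 7.87 and 7.61 in dark control against 8.57, 8.59 and 8.62 in dark sucrose. Neither pair of groups overlapped, and the rises were 1.04 ± 0.16 (SE, adjusted p = 3.6e-05) and 0.77 ± 0.16 (adjusted p = 0.00071). RPS4D rose in total RNA from 8.56, 8.90 and 8.85 to 10.09, 9.96 and 9.73 in light, by 1.15 ± 0.14 (adjusted p = 2.4e-06), and by 0.77 ± 0.14 in darkness (adjusted p = 0.00020). The light rise of RPS17C was 0.92 without the arrays of replicate 8, and that of RPS4D was 0.97 without those of replicate 7, both under 2-fold with an adjusted p still under 0.05 in limma. RPS28A went from 6.18, 6.25 and 6.61 to 7.12, 7.39 and 7.47 in light (0.98 ± 0.18, adjusted p = 0.00032) and rose by 0.75 in darkness (adjusted p = 0.0030). Its paralogs RPS28B (AT5G03850) and RPS28C (AT5G64140) rose in light by 0.78 and 0.94, and their dark changes of 0.39 and 0.41 did not pass (adjusted p = 0.056 and 0.053).

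In the S14, S23 and S26 families, whose proteins lie at the platform, the decoding site and the mRNA exit, the light rise in polysomal RNA exceeded that in total RNA for all but RPS26B (AT2G40590), which changed by 0.79 and 0.82. RPS26C (AT3G56340) polysomal RNA went from 7.96, 8.08 and 8.17 to 9.28, 9.51 and 9.29, a rise of 1.29 ± 0.15 (SE, adjusted p = 1.7e-06) beside 0.86 in total RNA. RPS23B went from 7.34, 7.19 and 7.39 to 8.47, 8.41 and 8.38, a rise of 1.11 ± 0.13 (adjusted p = 1.1e-06) beside 0.67. RPS14B (AT3G11510) went from 7.58, 7.52 and 7.96 to 8.86, 9.08 and 8.70, a rise of 1.20 ± 0.19 (adjusted p = 5.1e-05) beside 0.68. In all 3 the sucrose arrays lay above the control arrays, while the differences between the polysomal and the total change, 0.43, 0.44 and 0.52, did not pass (adjusted p = 0.80, 0.56 and 0.83).

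In darkness the sucrose changes of these genes were smaller in the median, and fewer passed. In total RNA 57 of the 60 features were higher in dark sucrose than in dark control, with a median log2 change of 0.36 (range −0.10 to 0.97), beside 0.00 over all features. The adjusted p was passed by 22, all rises, where 15.5% of all features rose at that threshold. None was called with more than 2-fold, against 5.47% of all features. At an unadjusted p under 0.05, 34 of the 60 rose (19.2% of all features). The dark sucrose arrays were above the dark control arrays for 34 features (19.7% of all features). In polysomal RNA all 60 features were higher, the median change was 0.50 (range 0.14 to 1.06), and 38 passed the adjusted p, where 16.3% of all features rose. With more than 2-fold 1 feature was called, RPS11B, against 5.48% of all features. The groups did not overlap for 36 features, as for 20.7% of all features. Without the low dark sucrose polysomal array of replicate 9 the median change was 0.66, and 51 passed the adjusted p (16.9% of all features). RPS2D, RPS11B and RPS27A were then called. Without the arrays of replicate 8 none was.

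RPS2D and RPS5A had the largest changes in total RNA in darkness as well. RPS2D was 7.59, 7.49 and 7.46 in dark control and 8.56, 8.44 and 8.45 in dark sucrose, a rise of 0.97 ± 0.20 (SE, adjusted p = 0.00063) just under 2-fold. RPS5A was 7.50, 7.40 and 7.56 against 8.06, 8.46 and 8.38 (0.82 ± 0.16, adjusted p = 0.00041). Neither pair of groups overlapped. The smallest values were those of RPS25E, with 7.32, 7.32 and 6.95 in dark control and 7.09, 7.23 and 6.97 in dark sucrose, and of RPS21C (AT5G27700), with 9.34, 9.41 and 9.36 against 9.32, 9.28 and 9.29. These differences were −0.10 ± 0.17 (adjusted p = 0.72) and −0.07 ± 0.12 (adjusted p = 0.71), and RPS27B had a difference of −0.07 as well. RPS21 is one of the smaller proteins of the subunit.

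In polysomal RNA in darkness RPS11B was 3.93, 3.92 and 3.80 in dark control and 5.04, 5.27 and 4.52 in dark sucrose. All sucrose values exceeded all control values, and the rise was 1.06 ± 0.20 (SE, adjusted p = 0.00026). It started from a low signal, since the control values lay below the lower quartile of all feature means (4.26). In total RNA of the same cultures this gene gave 4.30, 3.47 and 4.19 against 4.06, 4.45 and 4.11, which overlap. Over the 60 features the changes in light and in darkness, which share no array, had a Pearson correlation of 0.67 in total RNA and of 0.45 in polysomal RNA. Over all features these correlations were 0.67 and 0.65. The points share the same arrays within each axis and are not independent.

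The sucrose change was larger in light than in darkness for 57 of the 60 features in total RNA and for 59 in polysomal RNA. The median of the light minus dark difference was 0.39 in total RNA and 0.58 in polysomal RNA. Tested as an interaction within the model, the difference passed an adjusted p of 0.05 for 5 features in total RNA (RPS3A, RPS7B, RPS9C, RPS11B and RPS21C), where 4.09% of all features had a larger change in light at that threshold. In polysomal RNA it passed for 19, where 6.33% of all features did. With the replicate number as a block these counts were 9 (7.30% of all features) and 32 (9.99%). They depended on the cultures included: leaving out the arrays of replicate 7, 8 or 9 gave 0, 1 and 23 in total RNA, and 1, 0 and 28 in polysomal RNA. Without the single dark sucrose polysomal array of replicate 9 they were 10 and 11 (3.5% of all features for the polysomal count). The median difference in polysomal RNA was then 0.43.

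RPS11B, a feature of low signal, had the largest light minus dark difference in total RNA (1.15 ± 0.28 SE, adjusted p = 0.013), and RPS3aA the smallest (−0.07 ± 0.15, adjusted p = 0.85). For RPS11B the difference was 1.89, 0.28 and 1.27 in replicates 7, 8 and 9. RPS3aA in total RNA was 11.81, 11.76 and 11.75 in light control, 12.20, 12.21 and 12.06 in light sucrose, 11.55, 11.40 and 11.21 in dark control, and 11.89, 11.92 and 11.70 in dark sucrose. Its rise was 0.38 in light and 0.45 in darkness. RPS21C, by contrast, rose in light from 9.05, 9.20 and 9.16 to 9.62, 9.80 and 9.63. Its dark sucrose values above were slightly below the dark control values, a difference that did not pass. The light minus dark difference of RPS21C was 0.62 ± 0.17 (adjusted p = 0.022). RPS9C (AT5G39850), a protein of the mRNA entry side, rose in total RNA by 1.17 in light and by 0.45 in darkness, a difference of 0.71 ± 0.20 (adjusted p = 0.033). In polysomal RNA the largest light minus dark difference was that of RPS12A (1.22 ± 0.27 SE, adjusted p = 0.0050), or 0.94 ± 0.21 (adjusted p = 0.0089) without the low array.

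Between dark control and light control, 2 of the 60 features passed the adjusted p in total RNA, both lower in darkness, where 4.35% of all features were lower at that threshold, so that the share among the 40S features was near that of all features. They were RPS4B (AT5G07090), at −0.61 (adjusted p = 0.042), and RPS3aA, at −0.39 (adjusted p = 0.025), and neither exceeded 2-fold. In polysomal RNA 1 passed, RPS23B (AT5G02960), whose protein forms part of the decoding site. It was higher in darkness by 0.50 (adjusted p = 0.014), where 7.18% of all features were higher. In total RNA 37 of the 60 features were lower in dark sucrose than in light sucrose at an adjusted p under 0.05, where 14.6% of all features were, and in polysomal RNA 47 were, where 15.1% of all features were. Without the low dark sucrose polysomal array of replicate 9 the polysomal count was 28, where 10.1% of all features were lower. More than 2-fold was reached by RPS16C.2 in total RNA (−1.09) and by RPS12A (−1.13) and RPS5A (−1.03) in polysomal RNA. Without the arrays of replicate 7 RPS16C.2 was no longer called, and without those of replicate 9, or without the low array alone, neither polysomal call remained. These comparisons share the light and dark groups with those of sucrose above.

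Polysome occupancy differed between the genes in the sorbitol controls, about as much as between all features. Its SD over the 60 features was 0.41 in light control and 0.41 in dark control. Over all features it was 0.38 and 0.43. In light control, occupancy of the 60 ranged from −1.09 for RPS25E to 0.91 for RPS9C and RPS7A (AT1G48830), with a median of 0.08. Polysomal RNA was higher than total RNA at an adjusted p under 0.05 for 6 features, where 7.68% of all features were, and lower for 6, where 5.75% were. The lower ones were RPS25E, RPS21C, RPS16C.3, RPS12A, RPS24B (AT5G28060) and RPS16C.1, and the higher ones RPS9C, RPS7A, RPS12C, RPS8A (AT5G20290), RPS4D (AT5G58420) and RPS3A. Total and polysomal RNA came from the same cultures, and a fit with culture as a random block gave 11 higher (15.1% of all features) and 11 lower (10.9%). Without the arrays of replicate 7 the 2 directions together held 4, without replicate 8 they held 3, and without replicate 9 they held 18. In dark control 13 were higher (12.1% of all features) and 7 lower (11.1%). Over the 60 features, occupancy in light control and in dark control, from different cultures, had a Pearson correlation of 0.87, beside 0.79 over all features.

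After sucrose in light the spread of occupancy over the 60 features was smaller. In light sucrose 18 features were higher in polysomal RNA (8.81% of all features) and 0 lower (4.36%). With the culture block 32 were higher (17% of all features) and 3 lower (9.86%), and at an unadjusted p under 0.05, 33 were higher (16.4%) and 3 lower (10.4%). Occupancy there ranged from −0.39 to 0.86 with a median of 0.36. The SD of occupancy over the 60 features was 0.41 in light control and 0.29 in light sucrose, while over all features it was 0.38 in both. In dark sucrose 13 were higher (10% of all features) and 2 lower (7.56%), and with the culture block 28 (19%) and 4 (15.2%). The SD over the 60 was 0.31 after 0.41 in dark control, and also 0.31 without the low polysomal array. Without that array 27 were higher (13.4% of all features) and 1 lower (8.94%). The counts depended on the cultures included. Both directions together, they were 1 and 2 in light sucrose without replicate 7 and without replicate 8. In dark control they were 3 and 6, and in dark sucrose 0 and 1. Without replicate 9 the counts, in the same order of treatments, did not fall and were 19, 22 and 27. Shares of all features are not given for these fits.

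The change of occupancy with sucrose in light was above 0 for 52 of the 60 features, with a median of 0.30, beside −0.01 over all features. None passed an adjusted p of 0.05 in the linear model, where 0.346% of all features rose. At an unadjusted p under 0.05, 14 rose, against 4.98% of all features. With the culture as a random block, which uses that total and polysomal RNA are from one extract, 5 rose: RPS7B, RPS10B, RPS12A, RPS24B and RPS25E, where 1.99% of all features rose. The same 5 passed in a fit to the paired differences of each culture, and all but RPS7B with the replicate number as a block. In the linear model the same 5 also passed when the low dark sucrose polysomal array of replicate 9 was left out, although that array does not enter this comparison itself, only the estimate of the spread. Without the arrays of replicate 9 altogether 3 passed (RPS7B, RPS12A and RPS25E), and without those of replicate 7 or 8 none did.

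**Figure D3:**
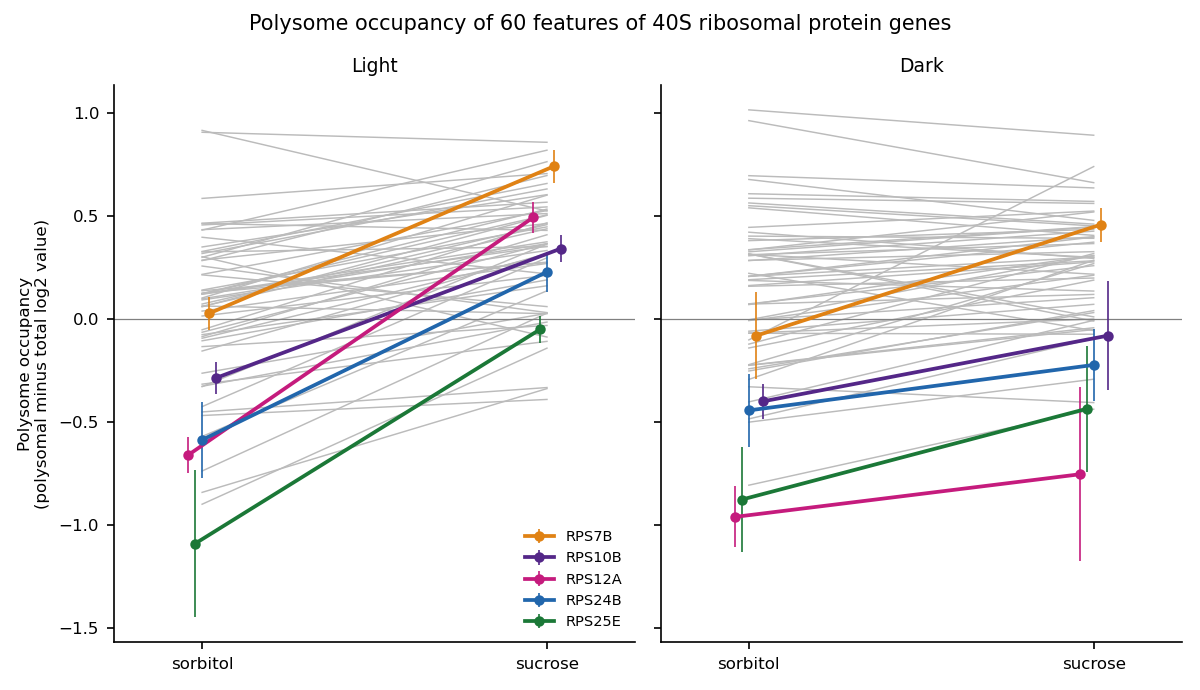
Polysome occupancy, the polysomal minus total log2 value, is plotted for the 60 features in sorbitol and sucrose, in light (left) and darkness (right). Lines join the group means of 3 cultures; the 5 genes with an occupancy rise in light under the culture block are in color with their SD. In light the lowest value moves from −1.09 to −0.39, and in darkness from −0.96 to −0.75.

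RPS12A had the largest occupancy change in light. Polysomal RNA was 7.79, 7.65 and 7.49 in light control and 9.13, 9.32 and 8.87 in light sucrose, a rise of 1.46 ± 0.19 (SE, adjusted p = 4.3e-06) beside the 0.31 in total RNA. The occupancy of the 3 cultures was −0.58, −0.64 and −0.76 in light control and 0.42, 0.48 and 0.57 in light sucrose. Occupancy thus went from below 0 in every culture to above 0 in every culture. The change was 1.15 ± 0.27 (SE, adjusted p = 0.068 in the linear model and 0.0036 with the culture block). Values were normalized across arrays, so 0 does not mark a given share of the mRNA in polysomes. In darkness the occupancy was −1.11, −0.81 and −0.96 in control and −0.40, −0.64 and −1.22 with sucrose, which overlap. The paralog RPS12C was enriched in all 4 treatments, with an occupancy of 0.58 ± 0.14 in light control and 0.71 ± 0.11 in light sucrose (SD, n = 3).

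RPS25E showed a similar course. Polysomal RNA was 6.05, 5.94 and 6.13 in light control and 7.11, 7.45 and 7.34 in light sucrose. Occupancy was −0.93, −1.50 and −0.84 in light control and −0.13, −0.01 and −0.01 in light sucrose. All 3 light sucrose cultures were above all light control cultures, and the change was 1.04 ± 0.25 (SE, adjusted p = 0.076 and, with the culture block, 0.0064). Occupancy in darkness was −1.13, −0.88 and −0.62 in control and −0.29, −0.23 and −0.79 with sucrose, which overlap. RPS25B had an occupancy near 0 throughout, between 0.01 ± 0.18 in light control and 0.21 ± 0.12 in light sucrose.

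RPS24B belongs to a family of the subunit's body. Its polysomal RNA was 8.42, 8.41 and 8.66 in light control and 9.57, 9.77 and 9.69 in light sucrose. Occupancy rose from −0.51, −0.80 and −0.45 to 0.12, 0.26 and 0.31, without overlap (change 0.81 ± 0.18 SE, adjusted p = 0.053 and, with the culture block, 0.0030). For RPS24A (AT3G04920) occupancy was 0.12 ± 0.17 in light control and 0.35 ± 0.04 in light sucrose (SD, n = 3).

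RPS7B (AT3G02560) and RPS10B (AT5G41520) completed the 5. RPS7B occupancy was 0.07, −0.06 and 0.08 in light control and 0.82, 0.74 and 0.66 in light sucrose (change 0.71 ± 0.17 SE, adjusted p = 0.080 and, with the culture block, 0.0045). In darkness it was −0.18, 0.16 and −0.23 against 0.55, 0.42 and 0.40, so the groups were apart there too, with a change of 0.54 ± 0.17 (adjusted p = 0.73, and 0.080 with the culture block). Its paralog RPS7A had an occupancy between 0.57 and 1.10 in every culture of all 4 treatments. RPS10, a protein of the head, is known in mammals as a ubiquitylation target on stalled ribosomes. RPS10B occupancy was −0.23, −0.38 and −0.25 in light control and 0.32, 0.29 and 0.41 in light sucrose (change 0.63 ± 0.15 SE, adjusted p = 0.076 and, with the culture block, 0.0068).

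In darkness the occupancy change had a median of 0.11 and was above 0 for 41 of the 60 features. None passed the adjusted p, in the linear model or with the culture block, and 0% of all features passed in the linear model in either direction. At an unadjusted p under 0.05, 6 rose, against 2.99% of all features. The largest was that of RPS11B, a feature of low signal, at 0.84 ± 0.28 (SE, adjusted p = 0.79), or 1.05 ± 0.27 (adjusted p = 0.17) without the low array. Without the low polysomal array of replicate 9 the median was 0.26, 53 features were above 0 and 12 rose at an unadjusted p under 0.05. Without the arrays of replicate 7 the median was 0.00. The light minus dark difference of the occupancy change passed the adjusted p for 0 of the 60, and at an unadjusted p under 0.05 it was larger in light for 2 (1.28% of all features) and smaller for 1 (1.33%). Without the low array it passed the adjusted p for 0, and at an unadjusted p it was larger in light for 1 and smaller for 2.

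**Figure D4:**
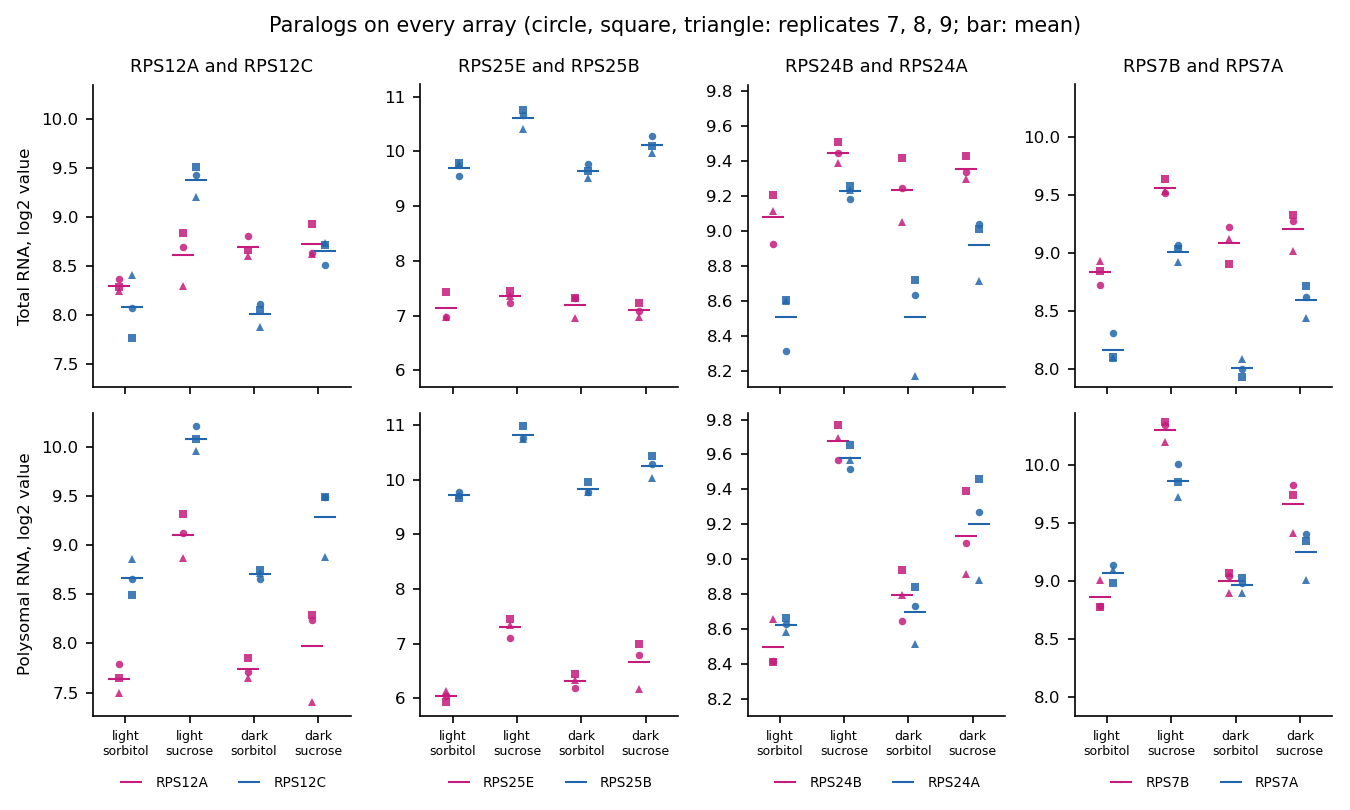
Log2 values on every array are plotted for 4 pairs of paralogs, in total RNA (upper row) and polysomal RNA (lower row), for the 4 treatments; symbols are replicates 7, 8 and 9 and bars are means. The distance between the colors is not a difference in mRNA amount, since the probes differ; what can be read is its change. RPS12A changes by 0.31 in total RNA and 1.46 in polysomal RNA in light, and RPS12C by 1.3 and 1.42.

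Paralogs were compared by the difference of their log2 values within each array, over the 46 pairs of features of different genes within a family. With sucrose in light this difference moved without overlap between the groups in 25 pairs in total RNA. In polysomal RNA it did so in 19, and in occupancy in 20. In darkness the counts were 11, 17 and 13. Without the low array, which leaves 2 cultures in dark sucrose, they were 20 in polysomal RNA and 17 in occupancy. Leaving out an array can only keep or raise such a count, so this is no check of it. Pairs within a family can share a feature and are not independent. No such count for other pairs is given here. With 3 cultures against 3, the two-sided exact permutation test of a single pair cannot go below 0.1, so no single pair was called. The largest shift in total RNA in light was that of RPS12A minus RPS12C, from 0.22 ± 0.35 to −0.77 ± 0.13 (SD, n = 3). The same pair had the largest shift in occupancy, from −1.24 ± 0.11 to −0.21 ± 0.14, and in darkness it went from −1.65 ± 0.15 to −1.39 ± 0.03. The shift in total RNA and that in occupancy thus ran in opposite directions, and in polysomal RNA RPS12A rose by 1.46 and RPS12C by 1.42.

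Occupancy differences narrowed in some other pairs and widened in others, and how many did either was not counted. RPS3aA minus RPS3aB went in darkness from −0.02 to −0.49 without the low array. In light the occupancy changes of these genes were −0.04 and 0.41. The pairs that follow narrowed. RPS25B minus RPS25E widened in total RNA in light from 2.58 ± 0.23 to 3.26 ± 0.20, and in occupancy narrowed from 1.10 ± 0.30 to 0.26 ± 0.07. RPS24A minus RPS24B narrowed in occupancy from 0.71 ± 0.23 to 0.12 ± 0.09, and RPS7A minus RPS7B from 0.88 ± 0.10 to 0.12 ± 0.02 in light and from 1.04 ± 0.11 to 0.20 ± 0.03 in darkness. In the S9 family RPS9B (AT5G15200) minus RPS9C went in occupancy from −1.0 ± 0.17 to −0.12 ± 0.22 in light and from −1.02 ± 0.02 to −0.68 ± 0.13 in darkness. Here the enriched paralog lost occupancy: RPS9C was at 0.78, 1.18 and 0.78 in light control and at 0.37, 0.66 and 0.55 in light sucrose, a change of −0.39 ± 0.20 (SE) that did not pass (adjusted p = 0.84). In the S2 family RPS2C minus RPS2D moved in total RNA in light from 2.59 ± 0.24 to 1.75 ± 0.08 and in darkness from 3.19 ± 0.18 to 2.33 ± 0.11, the largest dark shift of all pairs in total RNA. How far probes of near-identical paralogs detect each other's mRNA was not tested.

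The occupancy change in light was set beside the occupancy in dark control, which comes from other arrays. Of the 60, 7 were lower in polysomal than in total RNA in dark control at an adjusted p under 0.05, and their median occupancy change with sucrose in light was 0.63 (range 0.08 to 1.15). The 13 that were higher had a median of 0.10 (range −0.39 to 0.44), and the other 40 one of 0.31. The 3 sets had median changes of 0.45, 1.02 and 0.73 in total RNA and of 1.08, 1.05 and 1.04 in polysomal RNA in light. Over the 60 features the occupancy change in light and the occupancy in dark control, which share no array, had a Pearson correlation of −0.56 (Spearman −0.42), against −0.12 over all features. The occupancy change in darkness and the occupancy in light control, again without a shared array, had one of −0.55 (all features −0.18). The points share probes and the normalization of the arrays, and the correlation is given as a description only.

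**Figure D5:**
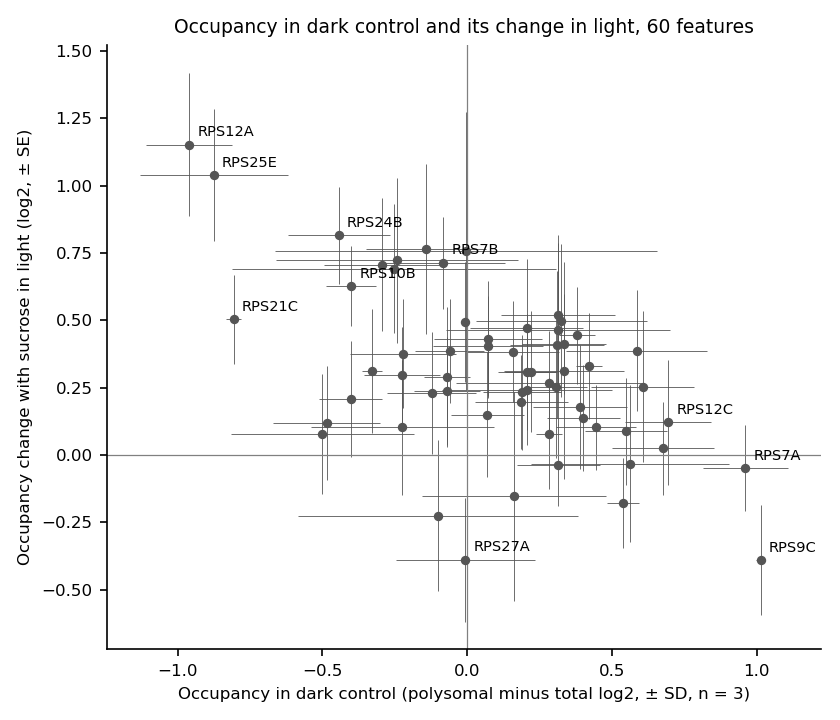
The occupancy change with sucrose in light (log2, ± SE) is plotted against the occupancy in dark control (log2, ± SD, n = 3) for the 60 features. RPS12A and RPS25E lie at the upper left with changes of 1.15 and 1.04, and RPS9C at the lower right with a change of −0.39.

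The 33 other measured 40S features belong to families outside the list, such as RPS6, RPS15a, RPS18 and RPS19, and to unlisted genes of the S15, S16, S25 and S27 families. They had a median change with sucrose in light of 0.66 in total RNA (range −0.29 to 1.18, 4 called) and 0.88 in polysomal RNA (range −0.55 to 1.75). Their median occupancy change was 0.23 (range −0.43 to 1.46), with RPS15aA at 1.46, RPS18C at 1.07 and RPS19A at 1.03. In total RNA 31 of the 33 were above 0 and in polysomal RNA 30, with RPS15aC lowest in both. For 125 features of 60S genes these medians were 0.79 (35 called), 1.09 and 0.27, and for 13 P-stalk features 0.80 (3 called), 0.91 and 0.25. RPS6A and RPS6B rose in total RNA in light by 0.91 and 0.84. The 3 RACK1 genes, which encode a scaffold protein on the 40S head, had a median of 1.40 (2 called). The mRNAs of TOR, RAPTOR1B, S6K1 and S6K2 had a median of 0.16 in light, and none of the 4 passed the adjusted p there (at an unadjusted p under 0.05, 1 was higher and 1 lower). In darkness S6K2 rose by 1.61 in total RNA (adjusted p = 9.9e-06). The mean of the 4 genes in total RNA ranged over the arrays from 8.89 to 9.06 in dark control and from 9.25 to 9.38 in dark sucrose. The dark changes of TOR, RAPTOR1B and S6K1 are not given here. No difference between the listed genes and these other groups was tested.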

How the data were processed

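The authors derived the deposited log2 values by RMA, which corrects the background, normalizes across arrays and combines the probes of a gene, without the non-polysomal arrays. They were used as deposited (0.832 to 14.49). The genome build of the array's identifiers is not given in the sources used here, and gene names follow the study's list of ribosomal protein genes. A RefSeq table held all 60 listed loci and gives 3 of them a name that another gene has here: AT2G37270 and AT3G11940 (RPS5A and RPS5B here) are exchanged, and AT4G00100 (RPS13B here) is RPS13A. After dropping 371 control rows, 8 group means were fitted over all 24 arrays in a linear model (R 4.3.3, limma 3.58.1; 3.57 prior degrees of freedom), with Benjamini-Hochberg adjustment over 30386 features in each comparison. Every adjusted p comes from limma. The adjusted p limit was 0.05. For effects of sucrose and darkness a call also asked for over 2-fold. SDs are over the 3 cultures of a group, and SEs are those of the model. Replicates are separate cultures per the study's methods. The fit was tested on data simulated with independent noise on every array. That test does not cover the correlations between arrays given in the next paragraph.

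Arrays of one replicate number deviated together in the sucrose comparisons (correlations 0.109 to 0.387), but not in every pair of the control comparison in total RNA (0.0147 to 0.296), and total and polysomal RNA of one culture did so at 0.211 to 0.598. The alternatives therefore included the replicate block, culture as a random block (correlation 0.417) and paired culture differences. Others were an intensity trend with a robust prior, quantile normalization, median centering, a filter on low means, a 1.5-fold limit, only the arrays compared, and leaving out replicates or the low array, which was extended to the dark sucrose occupancy counts, the comparison of both sucrose groups, the light minus dark occupancy change and the paralog pairs after seeing the data.

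Named genes have the 4 largest or smallest sucrose changes in light, the largest or smallest in darkness or in the light minus dark difference, belong to the 4 families with the widest range, or have an occupancy call. Further names were chosen after their values were seen. The listed genes, gene lists and comparisons were chosen with earlier results of these data known. Figures were drawn with Python 3.11.15 and matplotlib 3.10.9. Other RNA fractions, metabolites and qRT-PCR were not analyzed here.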

Additional observations from a re-analysis of the deposited data

Results flagged for a closer look

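The effect of sucrose differed between light and darkness, by the interaction term of the model, for 5 features in total RNA and for 19 in polysomal RNA. Each time the rise was larger in light, as for 4.09% and 6.33% of all features. Both counts nearly vanished without the arrays of replicate 7 or of replicate 8, as given above. The polysomal count was 11 (3.5% of all features) without the low dark sucrose polysomal array of replicate 9. In total RNA the light minus dark differences on the log2 scale were 1.15 for RPS11B (a feature of low signal), 0.71 for RPS9C, 0.62 for RPS21C, 0.61 for RPS7B and 0.54 for RPS3A. In polysomal RNA the largest were 1.22 for RPS12A, 0.97 for RPS5A, 0.94 for RPS23B and 0.92 for RPS25E. RPS3aB followed with 0.87, RPS24B with 0.84, RPS12C and RPS4A with 0.83, RPS7B with 0.78, RPS20B with 0.77 and RPS21C with 0.76. RPS5B and RPS23A both had 0.75, RPS3C had 0.73, RPS7C 0.72, RPS26C 0.71, RPS15A and RPS25B 0.68, and RPS7A 0.51. RPS7B and RPS21C passed in both kinds of RNA.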

How the results depend on the processing

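All results kept their direction under every alternative run except medians near 0, and no called change turned its sign. With a limit of 1.5-fold the counts of called rises with sucrose were 44 in light and 11 in darkness in total RNA. In polysomal RNA they were 59 and 20, and 1 feature was called between the controls in total RNA. For these counts, and for those below with no share printed above, the share of all features is not given. They show only how the counts move with the setting. Under quantile normalization the polysomal count in darkness was 0, the light minus dark count in total RNA 10 and the occupancy count in light 2, and the median occupancy change in light was 0.22, the median occupancy in light sucrose 0.22 and in dark control 0.063. The occupancy count in light was 4 with the replicate block, 5 with the culture as a random block or paired differences, 1 with an intensity trend, and 2 with median centering or without features of low mean. The replicate block gave light minus dark counts of 9 in total and 32 in polysomal RNA, and a fit to only the arrays compared gave 2 and 12. Polysomal against total RNA in light control gave 22 with the culture as a random block or paired differences. Leaving out a replicate number or the low array gave 9 to 17 called rises in light in total RNA, 0 to 3 in darkness in polysomal RNA, 0 to 5 for occupancy in light, 0 to 23 and 0 to 28 for the light minus dark difference in total and polysomal RNA, and 3 to 18 for polysomal against total RNA in light control. The median light minus dark difference in polysomal RNA ranged from 0.43 to 0.60 and the median occupancy in dark sucrose from 0.22 to 0.45, with the extremes 0.43 and 0.45 from leaving out the low array. Of 29 results of single genes, 11 kept their side of the threshold in every setting. The cause of these changes was not tested. With 3 arrays a group, and a median SE of 0.16 for a change and 0.22 for an occupancy change, small occupancy differences were not detectable.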
